A study of Mus musculus with 4 samples.

Results

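The genes of cholesterol and fatty acid synthesis were followed through single-cell RNA-seq of LSK cells. These are bone marrow cells that lack the markers of mature blood lineages and carry Sca-1 and Kit, a sort gate that includes blood stem cells and early progenitors. The module held 29 genes of the 55357 in the files, taken by gene symbol from a list of the pathway. It comprised 4 regulators, 8 genes of the mevalonate stage, 11 genes of the sterol stage, 1 sterol carrier and 5 genes of fatty acid synthesis and desaturation; the first 4 classes are called the 24 cholesterol genes. The Yoda1 mice were wild type and were given Yoda1, a chemical agonist of the stretch-gated ion channel Piezo1, into the peritoneum over 2 weeks. The control mice were wild type and were given vehicle. There were 2 libraries of each kind; the labels give no age. Nor do they tie each library to mice of its own, so the p-values of Yoda1 against control reflect library-to-library spread alone, which may be technical. Those of comparisons made within libraries reflect the spread that remains once each library's own level is removed.

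Cells make cholesterol from acetyl-CoA through mevalonate, then through the isoprenoid farnesyl diphosphate, squalene and lanosterol. The transcription factor SREBP-2, the product of Srebf2, activates the genes of this route when membrane sterol is low; SCAP escorts it out of the endoplasmic reticulum and INSIG1, itself a target, holds it there. SREBP-1, the product of Srebf1, acts in the same way on fatty acid genes, and isoprenoids of the same route are used to anchor small GTPases to membranes.

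The sequences just upstream of 3 members are shown because SREBP proteins bind sterol regulatory elements near such starts, together with NF-Y at CCAAT boxes. Each stretch is the 200 bases before the RefSeq start of the gene (GRCm38.p6, 5′ to 3′ on the strand of the gene); capitals mark matches, on either strand, to the sterol element core TCACNCCAC or to CCAAT, which reads ATTGG on the other strand. Hmgcs1 lies on the plus strand at chr13:119690151-119690350, Nsdhl on the plus strand at chrX:72918321-72918520, and Fasn on the minus strand at chr11:120824548-120824747.
Hmgcs1: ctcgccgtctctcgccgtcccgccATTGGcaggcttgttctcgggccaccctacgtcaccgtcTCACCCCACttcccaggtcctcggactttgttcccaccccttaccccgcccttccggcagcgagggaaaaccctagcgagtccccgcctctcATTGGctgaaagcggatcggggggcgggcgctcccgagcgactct
Nsdhl: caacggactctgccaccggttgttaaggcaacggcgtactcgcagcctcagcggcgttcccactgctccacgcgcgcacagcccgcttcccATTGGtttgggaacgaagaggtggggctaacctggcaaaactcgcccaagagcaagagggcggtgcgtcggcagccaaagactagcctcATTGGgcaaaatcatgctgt
Fasn: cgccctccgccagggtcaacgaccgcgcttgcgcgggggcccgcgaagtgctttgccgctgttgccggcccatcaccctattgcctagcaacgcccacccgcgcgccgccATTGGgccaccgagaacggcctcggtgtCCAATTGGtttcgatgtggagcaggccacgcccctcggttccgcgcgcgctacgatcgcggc
Hmgcs1 had 1 sterol element core and 2 CCAAT boxes in this stretch, Nsdhl had 2 CCAAT boxes and Fasn had 3, of which 2 overlapped end to end. RefSeq windows, 250 bases before to 50 after a start, were found for 23 of the 29 members. These members had 29 windows, as some genes have several starts. CCAAT on either strand stood in 20 of the 29 (69.0%), and in 37.4% of all 32851 windows. The sterol element core stood in 1 member, Hmgcs1, and in 1.24% of all windows. A match is a description of letters and was not tied to binding in these cells.

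With a cell filter of 500 or more genes, 1000 or more UMIs and no more than 10% mitochondrial UMIs, 34320 of 36805 barcodes were kept. The libraries held 7620 to 9756 cells and 89058521 to 110493533 UMIs, with medians of 7311 to 11220 UMIs per cell, and any pair of libraries shared 14 to 30 cell barcodes. Cells were placed in lineage gates by 7 marker genes each, such as Hlf, Mecom and Procr for the stem gate or Mpo, Elane and Ctsg for the granulocyte-monocyte gate. In the stem gate 6 of its 7 markers were higher than in the other gates, and in the lymphoid-primed gate 5 of 7. In the granulocyte-monocyte, megakaryocyte-erythroid, mast-basophil and dendritic gates 7 of 7 were. Because cells were gated by these same markers, such counts follow from the gating and do not test what the cells are. The B lineage and T-NK gates also had 7 of 7. They and the stromal-endothelial gate rested on a median of 1 or 2 detected markers and are not described. The library labelled Yoda1 2 stood apart: 32.9% of its cells were in the stem gate, against 10.4% in Yoda1 1 and 6.19% and 8.22% in the control libraries, and 2.19% were in the granulocyte-monocyte gate, against 21.4% in Yoda1 1 and 23.8% and 16.7% in the control libraries. Piezo1 itself was at 20.1 and 14.6 CPM in the Yoda1 libraries and at 25.0 and 17.9 CPM in the control libraries.

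Over all cells the cholesterol genes took a larger part of the RNA in both Yoda1 libraries than in both control libraries, whereas the fatty acid genes overlapped. The 24 cholesterol genes made up 5.44 and 5.68 of every 10000 UMIs in the Yoda1 libraries, against 4.94 and 4.65 in the control libraries, a ratio of means of 1.16. The 5 fatty acid genes made up 1.92 and 2.12 per 10000 in the Yoda1 libraries and 2.14 and 1.57 in the control libraries, a ratio of 1.09. By class, the regulators were at 1.03 and 1.41 per 10000 UMIs in the Yoda1 libraries and at 1.01 and 0.935 in the control libraries. The sterol-stage genes were at 2.02 and 2.09 in the Yoda1 libraries and at 1.74 and 1.83 in the control libraries. In these 2 classes both Yoda1 libraries lay above both control libraries, although for the regulators Yoda1 1 was barely above the higher control library. For the mevalonate-stage genes the groups overlapped, with Yoda1 2 below control 1. Scd2, Ebp, Fdps, Srebf2, Fasn and Pmvk together supplied 50.8% of the module's UMIs, so the summed level rests on few genes. Such sums cannot tell a change in the mix of cells from a change in RNA per cell.

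No single member passed the test over all cells. edgeR's quasi-likelihood test called 0 of the 29 members and 0 of all 18182 genes tested (0.0% called); 309 genes had an unadjusted p under 0.05, and DESeq2 called 5 genes, none of them a member, and limma-voom none. On the log2 scale, 20 of 29 members had a fold change above 0, with a median of 0.15, against 50.9% of all genes and a median of 0.01. The cholesterol genes had 18 of 24 above 0 (median 0.16) and the fatty acid genes 2 of 5 (median −0.06). Both Yoda1 libraries were above both control libraries in 12 of the 29 members (41.4%), as they were in 9.4% of all genes; all 12 were cholesterol genes. Both were below in 1 member, Pmvk, and in 9.95% of all genes.

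**Figure D1:**
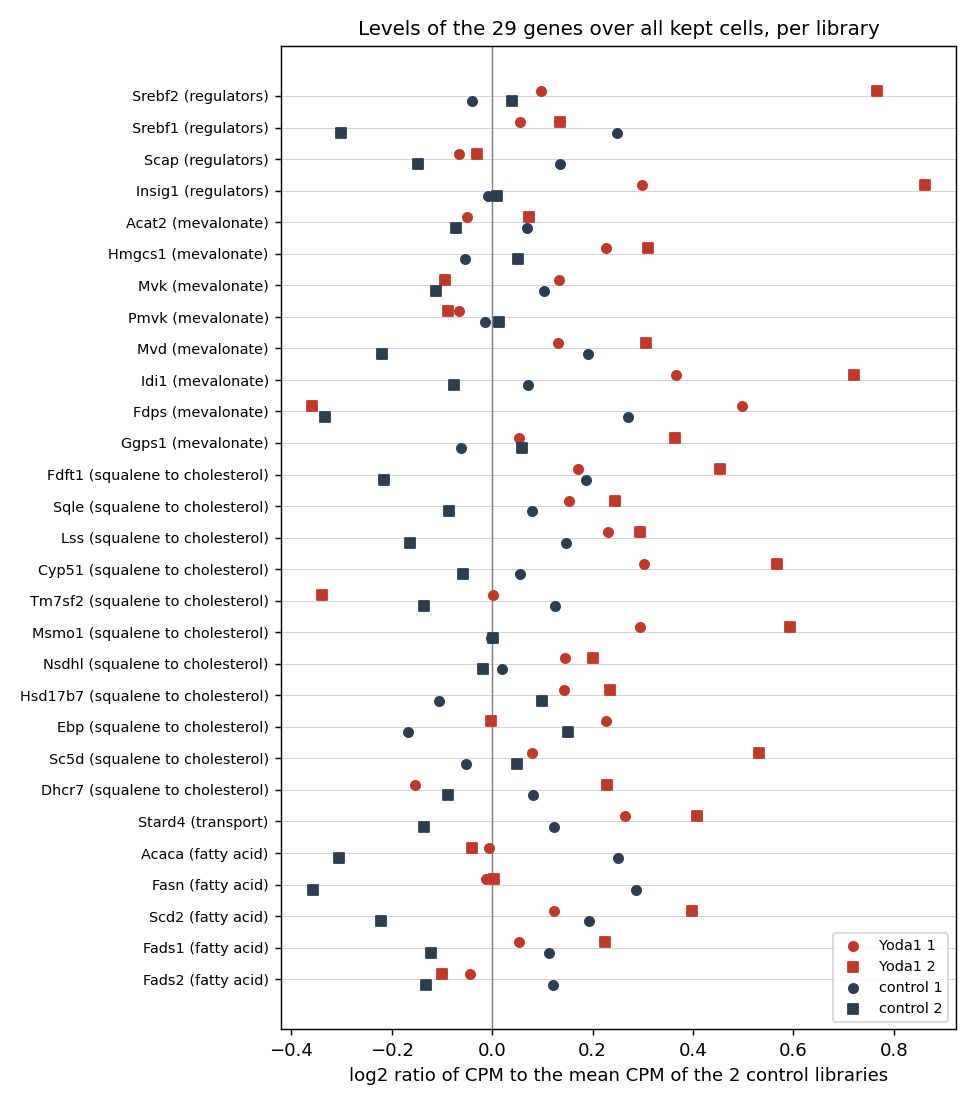
Level of each of the 29 members over all cells, as the log2 ratio of each library's CPM to the mean of the control libraries; points are single libraries, Yoda1 and control. The 12 members with both Yoda1 libraries above both control libraries, Insig1, Idi1 and Srebf2 among them, are all cholesterol genes.

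Among the regulators, Insig1, the SCAP-retaining protein (chr5:28071363-28078662, plus strand), was at 12.0 and 17.7 CPM in the Yoda1 libraries and at 9.66 and 9.78 CPM in the control libraries. Srebf2 (chr15:82147181-82205379, plus strand) was at 52.1 and 82.9 CPM in the Yoda1 libraries and at 47.3 and 50.05 CPM in the control libraries. For both genes the groups did not overlap and Yoda1 2 was the highest library; their log2 fold changes were 0.54 ± 0.21 (SE, unadjusted p = 0.0400) and 0.40 ± 0.20 (unadjusted p = 0.0807). Without Yoda1 2 they were 0.37 and 0.17. Yoda1 2 was also the library with the largest share of stem-gated cells, in which Srebf2 was at 101 and 107 CPM in the Yoda1 libraries and at 79.5 and 96.8 CPM in the control libraries; the part of this in the all-cell difference was not tested. Scap and Srebf1 had overlapping groups and log2 fold changes of −0.10 and 0.04.

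In the mevalonate stage, Idi1, which isomerises isopentenyl diphosphate (chr13:8885501-8892451, plus strand), was at 17.6 and 22.6 CPM in the Yoda1 libraries and at 14.4 and 13.0 CPM in the control libraries. The groups did not overlap, and the log2 fold change was 0.50 ± 0.19 (unadjusted p = 0.0373; adjusted p = 1). Hmgcs1, which makes HMG-CoA, was at 23.6 and 25.0 CPM in the Yoda1 libraries and at 19.5 and 20.9 CPM in the control libraries (log2 fold change 0.23, and 0.15 without Yoda1 1). Pmvk, the phosphomevalonate kinase, was the member that lay lower: 30.5 and 30.1 CPM in the Yoda1 libraries, against 31.6 and 32.2 CPM in the control libraries (−0.12 ± 0.17); without Yoda1 2 its log2 fold change was 0.00. Fdps, the farnesyl diphosphate synthase, was at 80.3 and 44.4 CPM in the Yoda1 libraries and at 68.6 and 45.2 CPM in the control libraries. Here the spread inside each group was far wider than the difference between them, and the log2 fold change of 0.11 was −0.54 without Yoda1 1 and 0.56 without Yoda1 2.

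In the sterol stage, Msmo1, the methylsterol oxidase, was at 18.4 and 22.7 CPM in the Yoda1 libraries, against 15.0 CPM in each control library (log2 fold change 0.40 ± 0.18, unadjusted p = 0.0607). Cyp51, the lanosterol demethylase, was at 17.6 and 21.2 CPM in the Yoda1 libraries and at 14.8 and 13.7 CPM in the control libraries (0.39 ± 0.19, unadjusted p = 0.0779). These and Sc5d, Sqle, Nsdhl, Lss and Hsd17b7 had groups that did not overlap, the last 5 with log2 fold changes of 0.13 to 0.27; that of Lss was 0.0099 and that of Sqle 0.013 without control 2, and that of Nsdhl 0.033 without Yoda1 1. Stard4, a carrier that moves sterol between membranes, was at 27.6 and 30.5 CPM in the Yoda1 libraries and at 25.1 and 21.0 CPM in the control libraries (0.29 ± 0.19); without control 2 its log2 fold change was 0.11 and without control 1 it was 0.48. Ebp, the sterol isomerase, had overlapping groups at 87.2 and 74.4 CPM in the Yoda1 libraries and 66.4 and 82.8 CPM in the control libraries.

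The fatty acid genes showed no separation of the groups. Fasn, the fatty acid synthase, was at 45.0 and 45.5 CPM in the Yoda1 libraries and at 55.3 and 35.4 CPM in the control libraries. Scd2, a desaturase that makes monounsaturated fatty acids, was at 87.8 and 106 CPM in the Yoda1 libraries and at 92.1 and 69.2 CPM in the control libraries. In both genes, as in the carboxylase Acaca and the desaturases Fads1 and Fads2, control 1 lay above control 2 and at least 1 Yoda1 library lay between them.

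Because the libraries differed in their mix of cells, the module was measured within each gate. The cholesterol genes were at 6.17 and 6.22 per 10000 UMIs in stem-gated cells of the Yoda1 libraries, against 5.95 and 5.36 in those of the control libraries. In granulocyte-monocyte-gated cells they were at 5.23 and 4.93 in the Yoda1 libraries and at 4.69 and 4.44 in the control libraries, and in megakaryocyte-erythroid-gated cells at 5.36 and 5.43 in the Yoda1 libraries and at 4.88 and 4.55 in the control libraries. Ratios of means were 1.10 in the stem gate, 1.12 in the lymphoid-primed, 1.11 in the granulocyte-monocyte, 1.14 in the megakaryocyte-erythroid and 1.11 in the mast-basophil gate, with both Yoda1 libraries above both control libraries in these 5 gates. In the dendritic gate the ratio was 1.06 and the groups overlapped. The fatty acid genes overlapped in 4 gates. In the other two they did not: in stem-gated cells they were at 2.43 and 2.40 in the Yoda1 libraries, against 2.39 and 1.97 in the control libraries, and in dendritic-gated cells at 2.23 and 2.06 in the Yoda1 libraries, against 2.00 and 1.38 in the control libraries. Since each gate shares its libraries with the others, the 6 gates are not 6 independent observations.

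**Figure D2:**
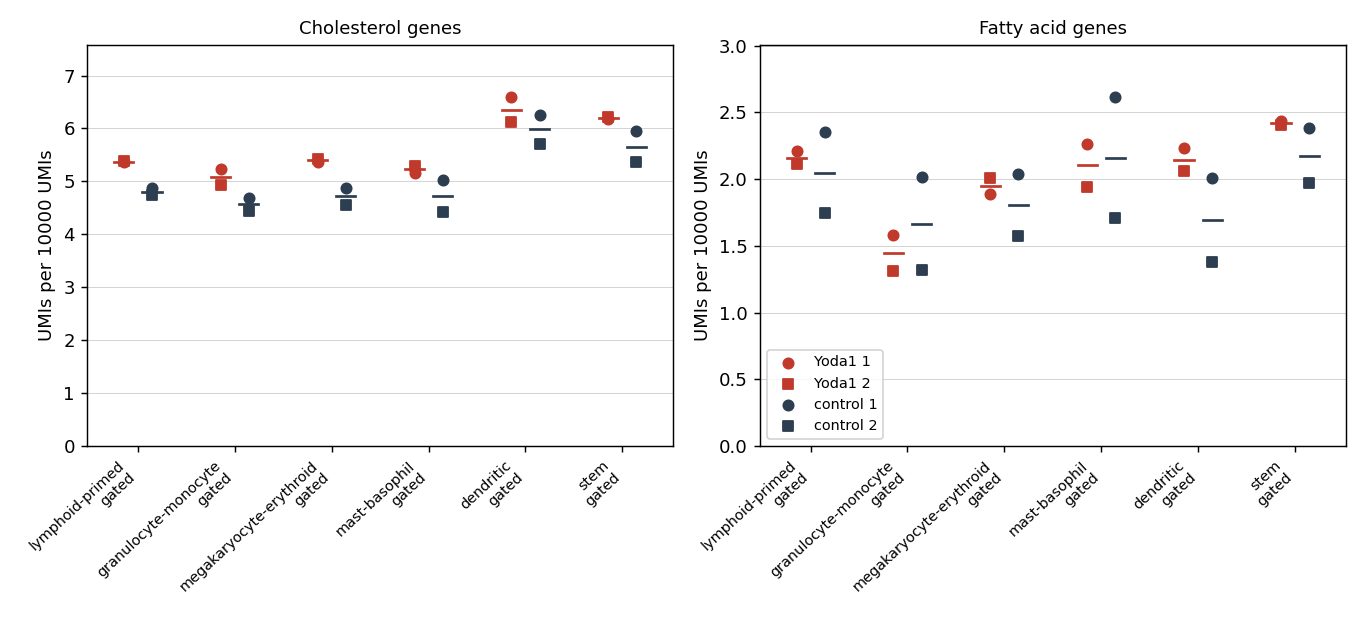
UMIs per 10000 from the 24 cholesterol genes and from the 5 fatty acid genes in each gate; points are single libraries, Yoda1 left of control, and bars are the means of the 2 libraries. The cholesterol genes sit higher in both Yoda1 libraries in 5 of the 6 gates, and the means of both sets are lower in the granulocyte-monocyte gate than in the stem gate. Levels are shares of total UMIs, a scale on which the median log2 fold change of all genes, granulocyte-monocyte over stem, was −0.49.

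Tested gene by gene within the gates, no member passed, and the leaning towards higher levels recurred with different leading genes. edgeR's quasi-likelihood test called 0 members in each of the 6 gates; it called 0 genes of any kind in 5 gates (0.0%) and 2 genes in the dendritic gate (0.0179%), while 193 to 981 genes per gate had an unadjusted p under 0.05. DESeq2 called 1 to 16 genes per gate, none of them a member. The members with a log2 fold change above 0 numbered 22 of 29 in the stem gate (median 0.18), 24 in the lymphoid-primed (0.17), 16 in the granulocyte-monocyte (0.03), 26 in the megakaryocyte-erythroid (0.12) and 23 in the mast-basophil gate (0.12), and 17 of 28 in the dendritic gate (0.06), where Tm7sf2 was too low to test. Over all genes the medians lay between −0.01 and 0.01, with 47.5% to 51.7% above 0.

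Members with both Yoda1 libraries above both control libraries numbered 9 in the stem gate (11.7% of all genes), 10 in the lymphoid-primed gate (9.77%), 7 in the granulocyte-monocyte gate (8.71%), 12 in the megakaryocyte-erythroid gate (10.8%), 8 in the mast-basophil gate (10.3%) and 6 in the dendritic gate (21.8%). Those with both below numbered 2 (14.7% of all genes), 2 (15.1%), 2 (18.7%), 0 (15.6%), 2 (16.5%) and 3 (16.8%) in the same order of gates. In the dendritic gate the share above, 6 of 28, was near that of all genes. Idi1 and Msmo1 were above in 5 of 6 gates and Insig1 in 4. Fold changes above 0 in all 6 gates were found for Insig1 (0.26 to 0.69), Idi1 (0.30 to 0.83), Sqle, the squalene epoxidase (0.13 to 0.28), Msmo1 (0.11 to 0.47) and Stard4 (0.22 to 0.47), and Pmvk was at or below 0 in all 6. Srebf2 had log2 fold changes of −0.02 to 0.25 within the gates (median 0.14), against 0.40 over all cells.

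**Figure D3:**
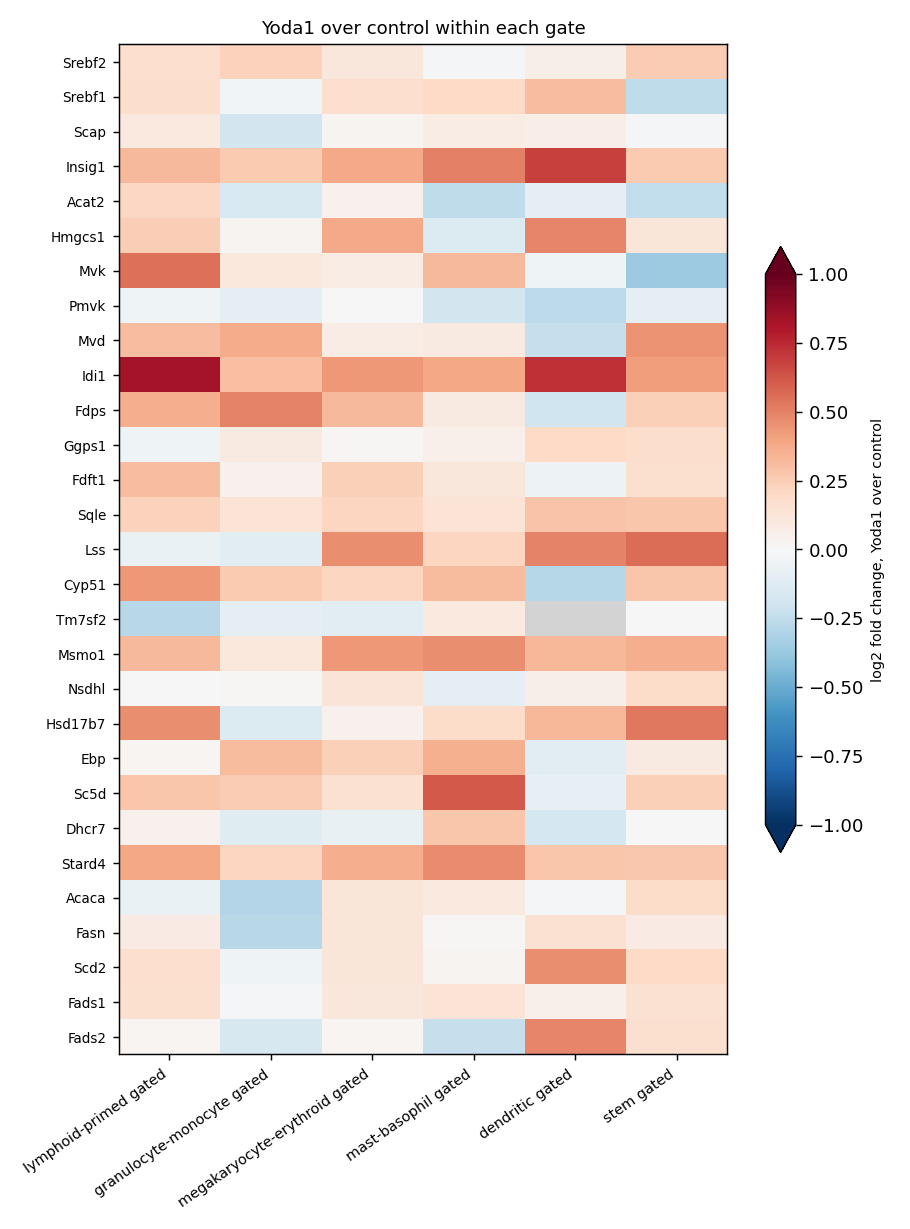
Log2 fold change of Yoda1 over control for each member in each of the 6 gates (TMM-scaled, edgeR); grey marks the one combination too low to test, Tm7sf2 in the dendritic gate. Idi1, Insig1, Msmo1, Sqle and Stard4 are above 0 in every gate, and no value passed an adjusted p of 0.05.

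Idi1 in lymphoid-primed-gated cells had the smallest unadjusted p of the members. It was at 18.8 and 18.6 CPM in the Yoda1 libraries, against 10.8 and 10.7 CPM in the control libraries, from 181, 406, 68 and 123 UMIs in Yoda1 1, Yoda1 2, control 1 and control 2 (log2 fold change 0.83 ± 0.17, unadjusted p = 0.00171, adjusted p = 1). The libraries of each group lay close together and the groups were clearly apart, but the adjustment over all genes left no call. In dendritic-gated cells Idi1 was at 30.1 and 25.8 CPM in the Yoda1 libraries and at 17.8 and 15.1 CPM in the control libraries (0.73 ± 0.22, adjusted p = 0.463), and Insig1 was at 19.3 and 20.4 CPM in the Yoda1 libraries and at 11.3 and 13.1 CPM in the control libraries (0.69 ± 0.25, adjusted p = 0.503).

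In granulocyte-monocyte-gated cells Fdps was at 121 and 108 CPM in the Yoda1 libraries and at 93.8 and 73.6 CPM in the control libraries (0.50 ± 0.16, unadjusted p = 0.0122), the groups apart although they overlapped over all cells. This gate held 214 cells in Yoda1 2, against 1955 in Yoda1 1 and 1816 and 1308 in the control libraries. In megakaryocyte-erythroid-gated cells Stard4 was at 39.8 and 42.2 CPM in the Yoda1 libraries and at 30.3 and 33.4 CPM in the control libraries (0.37 ± 0.12, unadjusted p = 0.0179). Idi1, Msmo1 and Hmgcs1 were apart in the same gate, with unadjusted p of 0.0170, 0.0221 and 0.0346.

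In stem-gated cells the separations were narrower. Msmo1 was at 26.3 and 28.7 CPM in the Yoda1 libraries and at 23.2 and 20.3 CPM in the control libraries (0.36 ± 0.15, unadjusted p = 0.0506), and Srebf2 was at 101 and 107 CPM in the Yoda1 libraries and at 79.5 and 96.8 CPM in the control libraries (0.25 ± 0.13, and 0.14 without control 1). Acat2, the acetyl-CoA acetyltransferase of the cytosol, lay lower there at 17.6 and 22.3 CPM in the Yoda1 libraries, against 24.6 and 23.8 CPM in the control libraries (−0.25, and −0.12 without Yoda1 1). The fatty acid genes differed between gates in the sign of their fold changes, 5 of 5 above 0 in stem-gated cells and 0 of 5 in granulocyte-monocyte-gated cells (median −0.16). The difference itself was tested as an interaction of treatment and gate with library as a block: edgeR called 0 members and 0 of 14576 genes (0.0%) in any of the 5 gates set against the stem gate, with 308 to 1407 genes at an unadjusted p under 0.05.

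Between lineages the members differed far more than between treatments. Setting each gate against stem-gated cells of the same library, granulocyte-monocyte-gated cells had more Fdps and Ebp and less Srebf2, Insig1, Stard4, Lss, Fads1 and Fads2, so the module did not move as a unit. The 5 contrasts share the stem-gated cells and come from one fit over all 9 gates, those not described included. That fit used a single estimate of the spread per gene. Each contrast is given by its own values, always in the order Yoda1 1, Yoda1 2, control 1 and control 2. Scaling matters here: TMM, the scaling of the test, moved the median of all genes by 0.15 in the lymphoid-primed, 0.40 in the granulocyte-monocyte, 0.24 in the megakaryocyte-erythroid, 0.19 in the mast-basophil and 0.18 in the dendritic contrast (log2) relative to plain scaling to total counts. Calls are therefore given under both scalings, and “rose” or “fell” is used of a member only where it was called in that direction under both.

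In granulocyte-monocyte-gated cells 9 members were called higher and 13 lower by edgeR under TMM, where 34.3% and 40.5% of 14121 genes were called in those directions; under total counts 2 were higher and 20 lower (18.3% and 60.5% of genes). In megakaryocyte-erythroid-gated cells 11 were higher and 9 lower under TMM (33.9% and 38.5%), and 4 and 10 under total counts (22.8% and 51.0%). In lymphoid-primed-gated cells 4 were higher and 7 lower (22.1% and 20.0%), and 1 and 13 under total counts (12.0% and 33.4%). In mast-basophil-gated cells 5 were higher and 6 lower (26.3% and 25.5%), and 3 and 12 under total counts (15.2% and 40.0%). In dendritic-gated cells 6 were higher and 3 lower (20.2% and 15.0%), and 4 and 4 under total counts (11.5% and 30.9%). The members' shares were thus near those of all genes in most contrasts. Of the calls made under both scalings, 3 of 8 in the lymphoid-primed, 13 of 15 in the granulocyte-monocyte, 11 of 13 in the megakaryocyte-erythroid, 7 of 9 in the mast-basophil and 5 of 7 in the dendritic contrast were kept in each of the 4 fits that left out a library. Of all called genes the share higher was 52.5%, 45.8%, 46.8%, 50.8% and 57.4% under TMM in the lymphoid-primed, granulocyte-monocyte, megakaryocyte-erythroid, mast-basophil and dendritic contrasts, and 26.4%, 23.3%, 30.9%, 27.6% and 27.1% under total counts.

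**Figure D4:**
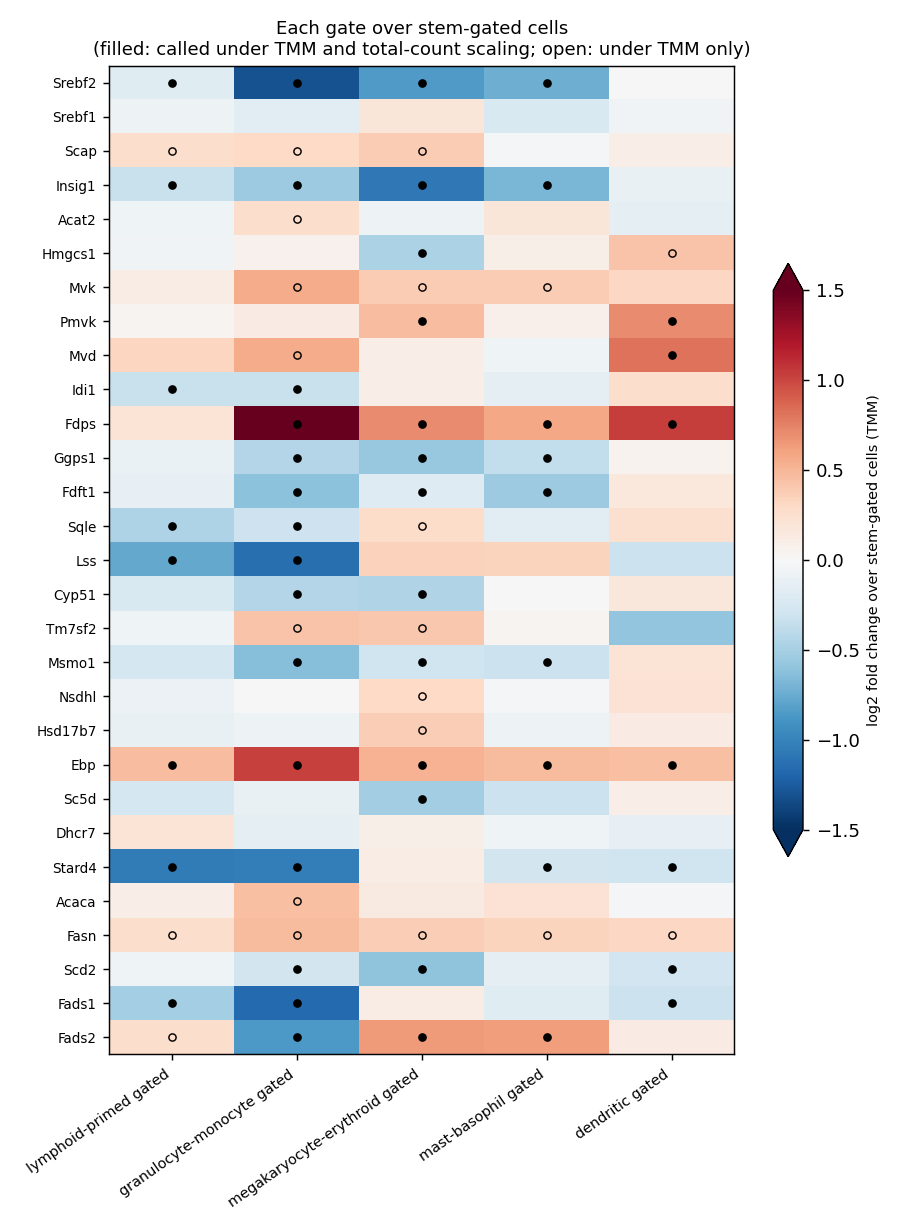
Log2 fold change of each gate over stem-gated cells for the 29 members (TMM scaling, library as a block); filled dots mark members called in the same direction under TMM and under total-count scaling, and open dots those called under TMM only. Ebp carries a filled dot in every gate on the higher side, and Srebf2 and Insig1 on the lower side in all gates but the dendritic.

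Srebf2 was lower than in stem-gated cells in 4 gates. In granulocyte-monocyte-gated cells it was at 31.6, 30.2, 30.0 and 24.6 CPM, against 101, 107, 79.5 and 96.8 CPM in stem-gated cells (log2 fold change −1.30 ± 0.08, adjusted p = 1.76e-16). It was at 45.2, 48.4, 44.7 and 41.5 CPM in megakaryocyte-erythroid-gated cells (−0.85 ± 0.07, adjusted p = 2.97e-12) and at 47.8, 51.3, 54.0 and 47.8 CPM in mast-basophil-gated cells (−0.73 ± 0.08, adjusted p = 5.96e-09). All 4 libraries of these 3 gates lay below all 4 stem-gated values. The step was small in lymphoid-primed-gated cells, at 74.1, 85.6, 68.6 and 76.2 CPM (−0.19 ± 0.07, adjusted p = 0.0393), and that call was lost within cycling cells alone, those with mitotic markers (−0.07, adjusted p = 0.597), without control 2 (adjusted p = 0.0761), Yoda1 1 (adjusted p = 0.16) or Yoda1 2 (adjusted p = 0.153). No call was made in dendritic-gated cells (−0.01).

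Insig1 followed with a different order of gates. It was lowest in megakaryocyte-erythroid-gated cells, at 8.29, 9.34, 6.91 and 6.55 CPM, against 20.3, 22.5, 18.02 and 18.3 CPM in stem-gated cells (−1.08 ± 0.11, adjusted p = 6.44e-11). In granulocyte-monocyte-gated cells it was at 10.1, 11.3, 9.55 and 8.66 CPM (−0.54 ± 0.10, adjusted p = 1.85e-05), and in mast-basophil-gated cells the log2 fold change was −0.68 ± 0.13. In lymphoid-primed-gated cells it was −0.34 ± 0.10, and this call was lost without Yoda1 2 (adjusted p = 0.058). Scap, whose protein escorts both SREBPs, was called higher in 3 gates under TMM and in none of them under total counts, and its sign turned in granulocyte-monocyte-gated cells (0.30 under TMM, −0.10 under total counts).

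Within the mevalonate stage Fdps rose in 4 gates. In granulocyte-monocyte-gated cells Fdps (chr3:89093588-89101959, minus strand) was at 121, 108, 93.8 and 73.6 CPM, against 41.3, 37.5, 44.6 and 23.1 CPM in stem-gated cells (1.82 ± 0.12, adjusted p = 1.15e-15), so the groups of libraries did not overlap. The log2 fold change was 1.04 ± 0.14 in dendritic-gated, 0.71 ± 0.12 in megakaryocyte-erythroid-gated and 0.58 ± 0.13 in mast-basophil-gated cells, and 0.21 with no call in lymphoid-primed-gated cells. Ggps1 and Fdft1 did not rise with it. Ggps1, which extends farnesyl to geranylgeranyl diphosphate, fell by 0.44 in granulocyte-monocyte-gated, 0.56 in megakaryocyte-erythroid-gated and 0.36 in mast-basophil-gated cells. Fdft1, the squalene synthase, fell by 0.62 in granulocyte-monocyte-gated and 0.55 in mast-basophil-gated cells (log2). Neither was called in dendritic-gated cells, where Pmvk and Mvd of the same stage rose with Fdps. Pmvk also rose with it in megakaryocyte-erythroid-gated cells. Within cycling cells alone the log2 fold change of Ggps1 was −0.28 in the granulocyte-monocyte (adjusted p = 0.0105), −0.42 in the megakaryocyte-erythroid (adjusted p = 0.000245) and −0.22 in the mast-basophil contrast (adjusted p = 0.112), and within non-cycling cells it was −0.09 in the megakaryocyte-erythroid (adjusted p = 0.833) and 0.066 in the mast-basophil contrast (adjusted p = 0.951).

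Pmvk rose in dendritic-gated cells, at 41.6, 43.3, 50.6 and 49.6 CPM, against 32.4, 29.9, 32.9 and 34.0 CPM in stem-gated cells (0.71 ± 0.08, adjusted p = 3.94e-08), and in megakaryocyte-erythroid-gated cells (0.47 ± 0.07). Mvd, the mevalonate diphosphate decarboxylase, rose in dendritic-gated cells at 7.71, 7.93, 8.59 and 9.53 CPM, against 5.65, 6.25, 6.29 and 2.77 CPM in stem-gated cells (0.82 ± 0.21, adjusted p = 0.00276). Both genes were above the stem-gated level in all 4 libraries. Hmgcs1 fell by 0.48 in megakaryocyte-erythroid-gated cells, and Idi1 fell by 0.33 in both granulocyte-monocyte-gated and lymphoid-primed-gated cells. The fall of Hmgcs1 was −0.35 within non-cycling cells (adjusted p = 0.451). Without Yoda1 2 both calls for Idi1 were lost (adjusted p = 0.071 and 0.0903), and without control 1 that in lymphoid-primed-gated cells (adjusted p = 0.0836).

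In the sterol stage Ebp (chrX:8185329-8193512, minus strand) rose in all 5 gates. In granulocyte-monocyte-gated cells it was at 102, 105, 74.0 and 97.0 CPM, against 65.8, 61.0, 52.3 and 67.9 CPM in stem-gated cells (1.02 ± 0.07, adjusted p = 2.42e-14), and in the other gates its log2 fold change was 0.45 to 0.52. Each library's value was above the stem-gated value of the same library in all 5 gates. Lss, which closes the sterol ring system, went the other way in granulocyte-monocyte-gated cells (−1.13 ± 0.18, adjusted p = 1.53e-06). Lss was at 2.17, 0.691, 2.19 and 1.77 CPM there, against 7.74, 5.70, 5.15 and 3.93 CPM in stem-gated cells. In Yoda1 2, Lss rested on few UMIs in that gate, from 214 cells. It also fell in lymphoid-primed-gated cells (−0.76 ± 0.18), where Sqle fell too (−0.46 ± 0.11); the call for Lss was lost without Yoda1 1 (adjusted p = 0.0536) and that for Sqle without Yoda1 2 (adjusted p = 0.0685). Cyp51 fell by 0.44 in granulocyte-monocyte-gated and 0.45 in megakaryocyte-erythroid-gated cells, and Msmo1 fell by 0.64 and 0.30 in these gates, the last not passing without control 1 (adjusted p = 0.0676) or Yoda1 2 (adjusted p = 0.0788). Within cycling cells alone neither fall of Msmo1 passed, at −0.26 (adjusted p = 0.0671) and 0.015 (adjusted p = 0.958).

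Stard4 was lowest in granulocyte-monocyte-gated and lymphoid-primed-gated cells. It was at 16.3, 13.4, 15.6 and 11.3 CPM in granulocyte-monocyte-gated cells (−1.04 ± 0.09, adjusted p = 5.87e-12) and at 19.1, 19.4, 18.3 and 12.2 CPM in lymphoid-primed-gated cells (−1.05 ± 0.10, adjusted p = 6.8e-11), against 46.0, 40.8, 43.5 and 29.4 CPM in stem-gated cells. In megakaryocyte-erythroid-gated cells it was at 39.8, 42.2, 30.3 and 33.4 CPM, and no call was made (0.11, adjusted p = 0.255). The smaller falls in mast-basophil-gated (−0.27 ± 0.10) and dendritic-gated cells (−0.30 ± 0.11) did not pass in 3 of the 4 fits that left out a library each, with adjusted p of 0.0636 to 0.117 and of 0.0876 to 0.13.

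The fatty acid genes split by enzyme. Fads1, the delta-5 desaturase (chr19:10182888-10196877, plus strand), was at 9.05, 7.60, 10.6 and 7.31 CPM in granulocyte-monocyte-gated cells, against 29.4, 25.3, 25.5 and 24.0 CPM in stem-gated cells (−1.16 ± 0.09, adjusted p = 1.94e-13). Fads2, the delta-6 desaturase next to it on the other strand (chr19:10062765-10101746), fell in the same cells, at 9.57, 7.83, 12.0 and 8.66 CPM, against 26.1, 21.3, 20.6 and 21.7 CPM in stem-gated cells (−0.86 ± 0.11, adjusted p = 1.28e-08). Both desaturases were far below the stem-gated level in every library.

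Fads2 rose in megakaryocyte-erythroid-gated cells, at 29.5, 32.7, 31.7 and 29.5 CPM (0.64 ± 0.10, adjusted p = 5.4e-07), and in mast-basophil-gated cells, at 31.9, 23.2, 39.0 and 28.6 CPM (0.63 ± 0.11, adjusted p = 1.28e-05), while Fads1 had log2 fold changes of 0.12 and −0.18 there with no call; the difference between the 2 genes was not tested. Fads1 fell in lymphoid-primed-gated cells, at 19.0, 15.6, 15.6 and 15.8 CPM (−0.51 ± 0.09, adjusted p = 1.87e-05). Its fall in dendritic-gated cells (−0.33 ± 0.11) did not pass in any fit that left out a library, with adjusted p of 0.0552 to 0.102.

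Scd2 fell most in megakaryocyte-erythroid-gated cells, at 69.3, 72.7, 74.1 and 55.8 CPM, against 131, 128, 126 and 101 CPM in stem-gated cells (−0.60 ± 0.06, adjusted p = 9.84e-11). It also fell by 0.27 in granulocyte-monocyte-gated and 0.29 in dendritic-gated cells. Fasn was called higher in all 5 gates under TMM, by 0.26 to 0.47, but in none under total counts, by 0.07 to 0.15. Scap, Acat2, Mvk, Tm7sf2, Nsdhl, Hsd17b7 and Acaca likewise had calls under TMM alone, and Srebf1 and Dhcr7 had none under TMM in any gate.

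**Figure D5:**
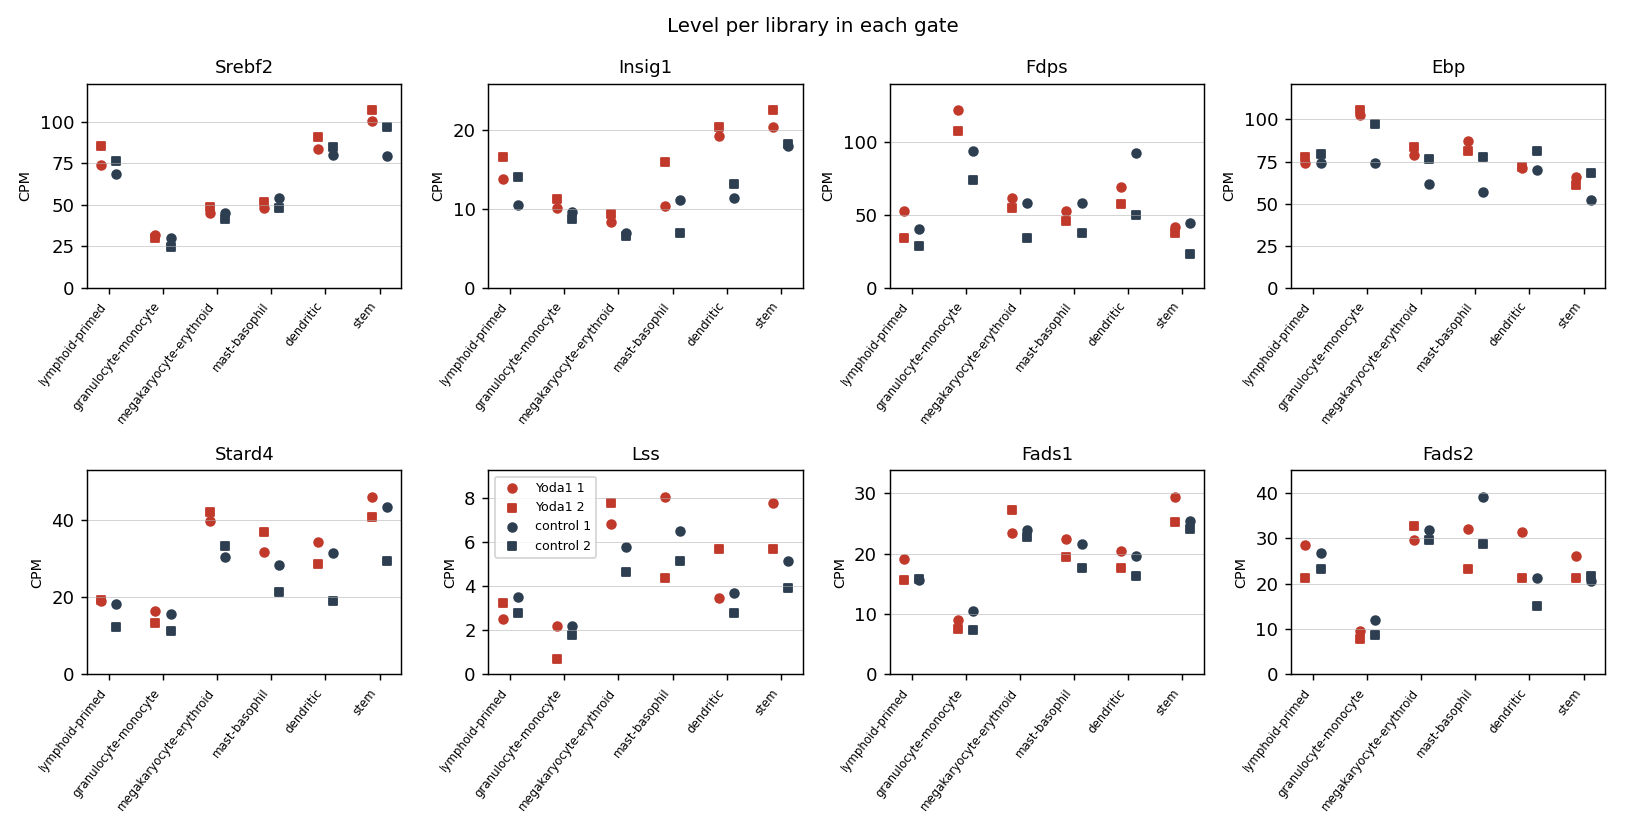
CPM of Srebf2, Insig1, Fdps, Ebp, Stard4, Lss, Fads1 and Fads2 in each gate; points are single libraries, Yoda1 left of control, with the stem gate last. Fdps and Ebp are high and Srebf2, Lss, Fads1 and Fads2 low in the granulocyte-monocyte gate, whereas Stard4 stays near its stem-gated level in the megakaryocyte-erythroid gate.

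The gates also differed in depth and cell cycle. Median UMIs per cell were 17751, 19945.5, 16683 and 17750 in granulocyte-monocyte-gated cells and 5371.5, 6361.5, 5946.5 and 5796 in stem-gated cells. Cycling cells, those with at least 2 of 8 mitotic markers after thinning to 3000 UMIs, made up 72.1%, 76.2%, 66.9% and 58.2% of granulocyte-monocyte-gated cells and 27.2%, 22.2%, 31.1% and 19.7% of stem-gated cells. Within cycling cells alone the granulocyte-monocyte contrast was of like size for Fdps (1.80), Stard4 (−1.05) and Fads1 (−1.35), and was −1.02 for Srebf2 and 0.79 for Ebp. Of the 52 calls made under both scalings in the 5 contrasts, 39 were kept within cycling cells. Of all genes, edgeR called 31.6% in the lymphoid-primed, 66.4% in the granulocyte-monocyte and 64.5% in the megakaryocyte-erythroid contrast within cycling cells, in either direction. The shares were 39.6% in the mast-basophil and 30.5% in the dendritic contrast within cycling cells. Besides those of Ggps1, Srebf2 and Msmo1 given above, the calls lost there were Insig1, Idi1 and Lss in the lymphoid-primed, Sqle in the granulocyte-monocyte, Fdft1 in the megakaryocyte-erythroid, Msmo1 and Stard4 in the mast-basophil and Stard4 and Fads1 in the dendritic contrast. Among the calls kept, those of Ebp in the megakaryocyte-erythroid and mast-basophil contrasts were 0.32 and 0.28 within cycling cells, and those of Insig1 and Scd2 in the granulocyte-monocyte contrast −0.36 and −0.17.

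The granulocyte-monocyte contrast could not be fitted within non-cycling cells, since Yoda1 2 held 2 such cells. In the other 4 contrasts 37 calls had been made under both scalings; 26 could be tested within non-cycling cells and 8 were kept. In the megakaryocyte-erythroid contrast Srebf2 fell there by 0.67 (adjusted p = 0.00179), whereas Fdps (0.50, adjusted p = 0.163), Ebp (0.36, adjusted p = 0.204), Pmvk (0.17, adjusted p = 0.66) and Ggps1 did not pass. In the mast-basophil contrast Fdps (0.65, adjusted p = 0.22) and Ebp (0.37, adjusted p = 0.418) did not pass either. These fits held far fewer cells, and the part of the cell cycle in the gate differences was not tested.

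Cycling cells were then set against non-cycling cells, those with none of 8 mitotic and 8 S-phase markers, over all gates. Srebf2, Insig1, Ggps1, Cyp51 and Msmo1 were lower and Mvk, Fdps, Ebp and Fads2 higher in cycling cells under both scalings. edgeR called 8 members higher and 5 lower under TMM (26.3% and 24.1% of 16297 genes), and 4 higher and 9 lower under total counts (18.1% and 35.7%); TMM moved the median of all genes by 0.20, and of all called genes 52.2% were higher under TMM and 33.6% under total counts. Within stem-gated cells alone 5 of 26 tested members were called, 1 higher and 4 lower, where 17.1% and 16.7% of all genes were called in those directions.

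Srebf2 was at 46.1, 67.2, 43.4 and 40.6 CPM in cycling cells, against 94.3, 110, 86.2 and 93.4 CPM in non-cycling cells (−0.77 ± 0.08, adjusted p = 1.34e-06). Fdps was at 84.3, 45.5, 71.1 and 47.7 CPM in cycling cells, against 46.4, 33.9, 42.0 and 27.9 CPM in non-cycling cells (0.89, adjusted p = 2.9e-06). For Srebf2 the groups did not overlap, while for Fdps cycling cells of Yoda1 2 lay below non-cycling cells of Yoda1 1. Ebp was at 91.7, 82.9, 70.1 and 88.1 CPM in cycling cells, against 66.8, 64.3, 39.5 and 68.8 CPM in non-cycling cells (0.67, adjusted p = 1.46e-05).

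Fads2 was at 20.6, 21.0, 23.8 and 19.1 CPM in cycling cells, against 14.7, 15.7, 18.4 and 14.5 CPM in non-cycling cells (0.61, adjusted p = 0.000154). The log2 fold changes of Fdps, Fads2, Mvk and Ggps1 did not pass within stem-gated cells (0.15, 0.23, 0.41 and −0.25), nor did that of Insig1 (−0.29). Those of Srebf2, Cyp51, Msmo1 and Ebp passed there, at −0.42, −0.48, −0.87 and 0.55. Over all gates these were −0.77, −0.27, −0.44 and 0.67. The cycling cells held 1400, 163, 1184 and 755 granulocyte-monocyte-gated cells and the non-cycling cells 14, 2, 18 and 15, and the part of this in the difference was not tested. Some calls rested on single libraries: Msmo1 did not pass without Yoda1 1 (adjusted p = 0.0603) or Yoda1 2 (adjusted p = 0.0588), Insig1 without control 2 (adjusted p = 0.0972) or Yoda1 2 (adjusted p = 0.0884), and Cyp51 without control 2 (adjusted p = 0.157), Yoda1 1 (adjusted p = 0.118) or Yoda1 2 (adjusted p = 0.076).

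The summed cholesterol genes were also set side by side in Yoda1 and control libraries within each cycle class. In cycling cells the 24 genes were at 5.33 and 5.32 per 10000 UMIs in the Yoda1 libraries, against 4.87 and 4.52 in the control libraries, a ratio of 1.13. In non-cycling cells they were at 5.81 and 6.10 in the Yoda1 libraries, against 4.79 and 5.02 in the control libraries, a ratio of 1.21. In both classes the groups did not overlap, and the difference between the classes was not tested. The mix of gates inside a class differed between libraries. In the order Yoda1 1, Yoda1 2, control 1 and control 2, the 4756, 3068, 3947 and 3058 cycling cells held 249, 680, 140 and 121 stem-gated cells. The 469, 1342, 356 and 806 non-cycling cells held 122, 606, 56 and 140. The part of this mix in the 2 ratios was not tested.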

How the data were processed

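Libraries of single LSK cells, 2 from Yoda1-treated and 2 from vehicle-treated wild-type mice, were grouped by the treatment label. The deposited matrices hold raw UMI counts per gene and barcode, written by Cell Ranger 7.1.0 per the file headers; the submitters' processing notes list Seurat 4.3.0, GRCm38 and mm10. Which capture platform was used is unclear, because the labels mention 10x Genomics as well as a Singleron microwell chip. Intronic read handling is not given in the sources used here.

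The cell filter kept barcodes with 500 or more genes, 1000 or more UMIs and no more than 10% mitochondrial UMIs. No doublet caller was run; removal of the 5% of cells with the most UMIs was an alternative. Each cell was scored on 9 lists of 7 markers as the sum of log(1 + UMIs per 10000), standardised over all cells, and placed in the gate of its highest score where that was at least 0.5 SD; 8.74% to 11.6% of cells lay within 0.1 of the cut. Gates with a median under 3 detected markers were left out, a limit set after seeing the data. Cell cycle classes were assigned after thinning to 3000 UMIs per cell, which dropped 154 to 446 cells per library. Counts were summed per library, or per gate and library, filtered with filterByExpr, scaled with TMM and compared by the quasi-likelihood test of edgeR 4.0.16 (Benjamini-Hochberg over all genes, threshold 0.05, R 4.3.3); gate and cycle contrasts had library as a block. The SE is the absolute unshrunk log2 fold change divided by the square root of the F statistic. DESeq2 1.42.0, limma 3.58.1 voom, RLE, no filter, other cell filters, total counts and each library left out were alternatives. CPM are scaled to the UMI total of the summed cells. Members and lists were chosen with earlier results of these data known. Full values go to members past the test, at most 6 per direction and contrast, or, where none passed, to members whose groups did not overlap; other members are given by counts or fold changes. Gene positions are from GENCODE M21 (GRCm38), promoters from RefSeq (GRCm38.p6). The fits were tested on simulated counts.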

Additional observations from a re-analysis of the deposited data

How the results depend on the processing

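For Yoda1 against control, no member passed under DESeq2, limma-voom, RLE, a stricter cell filter, no filter on low counts, every deposited barcode, removal of the 5% of cells with the most UMIs, total-count scaling or each library left out, over all cells or in any gate where the setting was run. Fitted with the replicate number as a replicate block, over all cells, edgeR called 0 members and 0 genes. It had 1367 genes at an unadjusted p under 0.05, against 309 without this block, the fit used for the values above. The correlation of replicate differences between groups was 0.45 over genes, so same-numbered libraries shared part of their differences. With 2 pairs and no label of pairing this cannot settle whether the numbers pair. Without Yoda1 1 the test called 938 genes of any kind and without Yoda1 2 it called 209, against 0 with all libraries. Pmvk over all cells ranged from −0.25 without Yoda1 replicate 1 to 0.0038 without Yoda1 replicate 2. In simulated data 2.56% of 2-fold changes were recovered over all cells and 88.7% in the granulocyte-monocyte contrast, so the treatment comparison could miss most changes of that size.

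For gates against stem, calls of members within non-cycling cells numbered 4 (lymphoid-primed, 11 in the full fit), 3 (megakaryocyte-erythroid, 20), 1 (mast-basophil, 11) and 2 (dendritic, 9); these fits used far fewer cells, tested 17 members each and called 13.8%, 34.9%, 13.9% and 8.83% of all genes in either direction. Within cycling cells, a setting chosen after seeing the data like the total-count scaling, they numbered 6 (lymphoid-primed, 31.6% of all genes) and 7 (mast-basophil, 39.6%). Leaving out a library gave 7 to 9 (lymphoid-primed, with 33.2% to 37.2% of all genes called), 19 to 22 (granulocyte-monocyte, 70.2% to 72.5%), 15 to 17 (megakaryocyte-erythroid, 67.4% to 69.0%), 8 to 11 (mast-basophil, 43.1% to 47.7%) and 5 to 9 (dendritic, 24.1% to 31.8%). For cycling against non-cycling cells it gave 10 to 13 (40.9% to 48.6%), and stem-gated cells alone gave 5 (33.8%). Signs turned for Scap in the granulocyte-monocyte contrast under total counts (−0.10), for Msmo1 in the megakaryocyte-erythroid contrast within cycling cells (0.015) and, within non-cycling cells, for Fasn (−0.28) and Ggps1 (0.066) in the mast-basophil and Hmgcs1 (−0.44) in the dendritic contrast; the cause was not tested. Of 1419 alternative values for named genes, 1293 kept direction and call, 120 kept direction only and 6 turned.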

Other observations

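A wider list of 22 genes of sterol uptake, storage, efflux and fatty acid handling was measured beside the module. Over all cells 12 of the 22 had a log2 fold change above 0 for Yoda1 over control (median 0.12) and edgeR called none. Abcg1, which exports sterol, was at 28.8 and 49.8 CPM in the Yoda1 libraries and at 25.6 and 29.3 CPM in the control libraries, so the groups overlapped.

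In granulocyte-monocyte-gated cells edgeR called 5 of 20 tested genes higher and 10 lower than in stem-gated cells, where 34.3% and 40.5% of all genes were called in those directions (TMM scaling). In megakaryocyte-erythroid-gated cells it called 4 higher and 11 lower, beside 33.9% and 38.5% of all genes. Under total counts the list gave 3 higher and 14 lower in each of these contrasts. Of all genes, 18.3% were called higher and 60.5% lower under total counts in the granulocyte-monocyte contrast. In the megakaryocyte-erythroid contrast these shares were 22.8% and 51%. Abca1, a sterol exporter, was at 3.77, 2.76, 3.07 and 2.98 CPM in granulocyte-monocyte-gated cells, against 20.8, 14.4, 16.0 and 17.3 CPM in stem-gated cells (−2.0 ± 0.13, adjusted p = 2.37e-15). Abcg1 was at 13.8, 13.4, 15.3 and 13.7 CPM in granulocyte-monocyte-gated cells, against 68.9, 63.3, 61.5 and 69.6 CPM in stem-gated cells (−1.76). Soat1, which stores sterol as esters, was at 7.27, 10.1, 6.26 and 6.08 CPM in megakaryocyte-erythroid-gated cells, against 32.6, 29.4, 26.9 and 29.8 CPM in stem-gated cells (−1.83). Acss2, which makes acetyl-CoA from acetate, was at 4.26, 4.61, 6.32 and 4.92 CPM in granulocyte-monocyte-gated cells, against 19.4, 21.6, 17.7 and 24.0 CPM in stem-gated cells (−1.63). For each of these genes all 4 libraries of the gate lay below all 4 stem-gated values. Elovl1, a fatty acid gene of the list, was called higher by edgeR under TMM in both contrasts. Its log2 fold change was 0.79 in granulocyte-monocyte-gated (adjusted p = 2.71e-14) and 0.93 in megakaryocyte-erythroid-gated cells (adjusted p = 3.37e-16). Abca1 was also lower in cycling than in non-cycling cells, at 6.86, 8.43, 5.30 and 6.02 CPM in cycling cells and at 21.5, 18.3, 12.4 and 19.5 CPM in non-cycling cells (−1.23).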
